A study of Drosophila melanogaster with 12 samples.

Results

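The insect cuticle is a layered coat of chitin and protein that the epidermis, the tracheae, the foregut and the hindgut secrete, and larvae renew it at each moult. Most of its proteins belong to the CPR family, whose Rebers-Riddiford domain binds chitin, while chitin deacetylases modify the sugar polymer itself. The transcripts followed here belong to 4 genes of this kind. Cpr49Ag (CG8511) and Cpr60D (CG30163) encode CPR proteins, Acp65Aa (CG10297) encodes a CPR protein named for adult cuticle, and verm (CG8756, vermiform) encodes a secreted chitin deacetylase known from tracheal tubes. The 4 genes were chosen by name, with earlier results of these data known. Each was found in the array's target names by a RefSeq identifier (Cpr49Ag, verm) or a cDNA clone (Cpr60D, Acp65Aa), and each had 1 probe. They are 4 of the 18757 genes or target sequences tested, out of 25842 on the array. All 4 probes were well above background on all 12 arrays, so none entered the test through one group alone.

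The study asked how Drosophila melanogaster larvae respond to rapamycin, an inhibitor of the growth-promoting kinase complex TORC1, and whether REPTOR, a bZIP transcription factor that becomes active when TORC1 is inhibited, is needed for that response. Total RNA of larvae, labelled female and taken 48 h before wandering, was measured on Cy3 arrays, 3 for each of 4 groups. The groups were REPTOR knockout larvae on food with 200 µM rapamycin for 6 h, REPTOR knockout larvae on food with ethanol, w1118 control larvae on the same rapamycin food, and w1118 control larvae on ethanol food. The labels do not describe the knockout allele, and the genetic background of the knockout relative to w1118 is not given. The series calls the arrays of a group biological replicates.

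A level here is the log2 of a probe's signal over the 75th percentile of its array, and it cannot be set against the level of another gene. In such bulk RNA, fewer cuticle-forming cells and less RNA per cell cannot be told apart. On each array 72.5% to 82.7% of spots exceeded background clearly and none was saturated. REPTOR itself matched no target name used here, so the genotype labels were not checked through it. The arrays lie on 3 slides, with all control ethanol arrays on slide 1 and all knockout rapamycin arrays on slide 3. The male-specific RNA roX2, listed with roX1 as the male markers, was well above background on control rapamycin array 3 and on all 3 knockout rapamycin arrays, although the labels say female. Its level was 0.01, -1.10 and -5.83 on knockout rapamycin arrays 1 to 3, against -9.06 to -7.52 on knockout ethanol arrays. The level of roX1 ranged from -0.47 to 3.88 on knockout rapamycin arrays and from -1.57 to -1.39 on knockout ethanol arrays. In control larvae it ranged from 0.17 to 3.35 on rapamycin and from -0.80 to -0.13 on ethanol. What part this has in the results was not tested.

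Rapamycin lowered 3 of the 4 genes in control larvae, and all of them by less than 2-fold. Cpr49Ag was at 51.3%, verm at 59.6% and Cpr60D at 71.5% of their levels on ethanol food, and for each the rapamycin and ethanol arrays did not overlap. Acp65Aa, at 64.8%, did not pass. The count of 3 of 4 stands against 21.8% of all tested targets that passed as lower (adjusted p under 0.05, limma with Benjamini-Hochberg adjustment over all of them), and non-overlap on the lower side held for 27.5%. With normexp background correction of the median spot signal, an alternative added after seeing the data, Cpr60D no longer passed. In knockout larvae none of the 4 passed, where 15.3% of all tested targets did (2877, with 6129 at an unadjusted p under 0.05). The median difference over the 4 genes was -0.10 in knockout and -0.69 in control larvae on the log2 scale, against 0.01 and 0.05 over all tested targets. Since the genes were chosen with earlier results known, these comparisons with all targets are descriptive only.

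**Figure D1:**
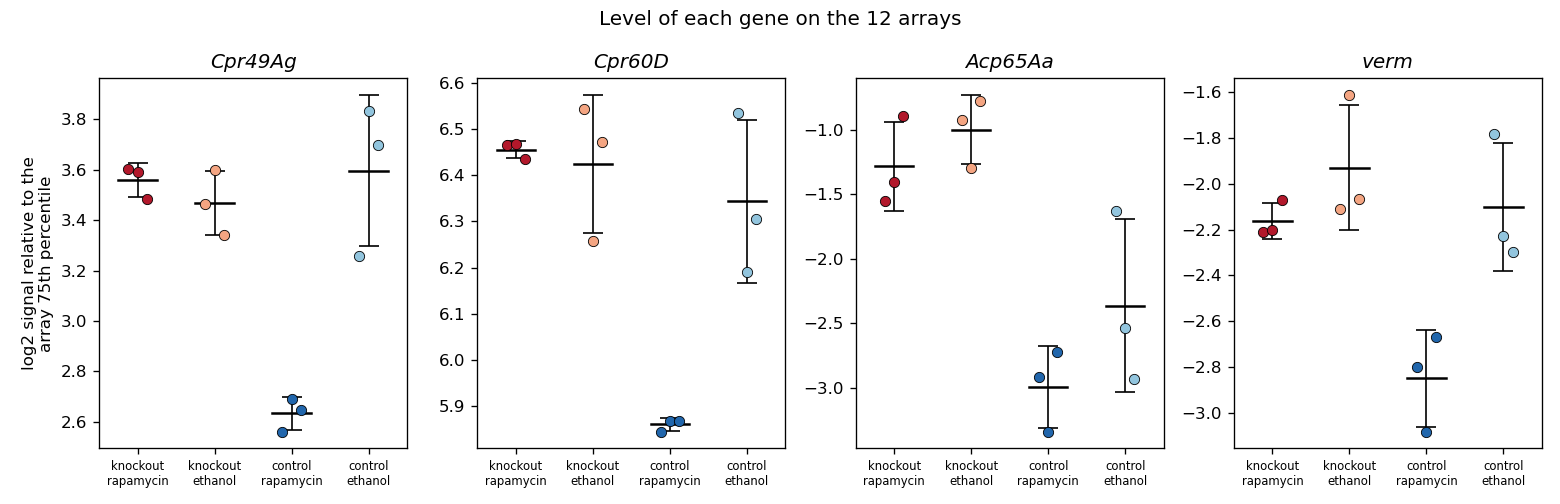
Level (log2 signal relative to the array 75th percentile, vertical axis, a separate scale per gene) of the 4 genes on each array, by group; points are arrays, bars the mean and SD of 3 arrays. For Cpr49Ag, Cpr60D and verm the 3 control rapamycin arrays lie below the other 9 arrays, and for Acp65Aa all 6 knockout arrays lie above all 6 control arrays. The share of all tested targets with either split was not counted.

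Cpr49Ag had a rapamycin effect that differed between the genotypes, as did Cpr60D, and 6.63% of all tested targets passed with a difference in that direction. In knockout larvae its levels were 3.61, 3.59 and 3.48 on rapamycin, against 3.47, 3.60 and 3.34 on ethanol. In control larvae they were 2.56, 2.69 and 2.65 on rapamycin, against 3.26, 3.83 and 3.70 on ethanol. The 3 control rapamycin arrays thus stood alone below the other 9, a split whose share over all tested targets was not counted. Knockout larvae had a rapamycin effect of 0.09 ± 0.13 (log2, SE, n = 3 arrays per group, limma adjusted p = 0.671), with a 95% confidence interval from -0.21 to 0.39. Control larvae had -0.96 ± 0.13 (limma adjusted p = 0.000332), with an interval from -1.26 to -0.66, and 5.35% of all tested targets had a lower value. The difference of these effects, knockout minus control, was 1.05 ± 0.19 (limma adjusted p = 0.00576). The probe has 2 spots per array, which differed by 0.01 to 0.20 on the log2 scale (median 0.05). The SD between arrays was 0.30 on control ethanol arrays, where the largest of these gaps lay (array 3). In the other groups gaps reached 0.13 on control rapamycin (SD 0.07), 0.08 on knockout rapamycin (SD 0.07) and 0.01 on knockout ethanol arrays (SD 0.13).

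The group means of Cpr49Ag were 3.56 ± 0.07 (SD) in knockout larvae on rapamycin and 3.47 ± 0.13 on ethanol, and 2.63 ± 0.07 in control larvae on rapamycin and 3.60 ± 0.30 on ethanol. Control larvae on ethanol were thus nominally highest, but they and both knockout groups overlapped, and control larvae on rapamycin were lowest. On rapamycin food the knockout was higher than the control by 0.93 ± 0.13 (limma adjusted p = 0.000781). On ethanol food the difference was -0.13 ± 0.13 (limma adjusted p = 0.599), with an interval from -0.43 to 0.17.

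Cpr60D also fell in control larvae, by less. Its levels in knockout larvae were 6.47, 6.47 and 6.43 on rapamycin, against 6.54, 6.26 and 6.47 on ethanol. In control larvae they were 5.84, 5.87 and 5.87 on rapamycin, against 6.54, 6.19 and 6.30 on ethanol. As with Cpr49Ag, the 3 control rapamycin arrays were below every other array, and the remaining groups overlapped. The share of all tested targets with this split was not counted. Non-overlap of the control groups on that side, which is part of it, held for 27.5%. The rapamycin effect was 0.03 ± 0.10 in knockout larvae (limma adjusted p = 0.854, interval -0.19 to 0.25) and -0.48 ± 0.10 in control larvae (limma adjusted p = 0.00283, interval -0.70 to -0.27). The difference of effects was 0.51 ± 0.14 (limma adjusted p = 0.0333), and it passed in only 5 of 21 alternatives, among them 3 of the 12 that leave out 1 array. Over those 12 its value ran from 0.42 to 0.59 (limma adjusted p from 0.0262 to 0.0707), and the call was kept without control ethanol array 1, control ethanol array 2 or knockout ethanol array 1. With the normexp alternative the effect in control larvae was -0.31 (limma adjusted p = 0.306), where the median over all targets was itself -0.34.

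The group means of Cpr60D were 6.46 ± 0.02 (SD) in knockout larvae on rapamycin and 6.42 ± 0.15 on ethanol, and 5.86 ± 0.01 in control larvae on rapamycin and 6.34 ± 0.18 on ethanol. Knockout larvae exceeded control larvae by 0.60 ± 0.10 on rapamycin food (limma adjusted p = 0.00156), while on ethanol food the difference was 0.08 ± 0.10 (limma adjusted p = 0.651). The processed signal of this probe, between 81290 and 160600 units, was not marked as saturated on any array.

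Acp65Aa was higher in the knockout on both foods. Its levels in knockout larvae were -1.55, -1.40 and -0.90 on rapamycin, against -0.93, -1.30 and -0.78 on ethanol. In control larvae they were -2.91, -3.34 and -2.72 on rapamycin, against -1.63, -2.53 and -2.93 on ethanol. All 6 knockout arrays were above all 6 control arrays, and within each genotype the foods overlapped. The share of all tested targets with such a split by genotype was not counted. The knockout was 3.26-fold higher on rapamycin food (1.71 ± 0.32 on the log2 scale, limma adjusted p = 0.0037) and 2.57-fold higher on ethanol food (1.36 ± 0.32, limma adjusted p = 0.0415). The second call passed in 4 of 22 alternatives, over which the value ran from 0.74 to 1.73. Of the 12 fits that leave out 1 array it was kept in those without control ethanol array 1, knockout rapamycin array 1 or knockout rapamycin array 3. Group means were -1.28 ± 0.35 (SD) in knockout larvae on rapamycin and -1.001 ± 0.27 on ethanol, and -2.99 ± 0.32 in control larvae on rapamycin and -2.36 ± 0.67 on ethanol. From high to low the order was knockout ethanol, knockout rapamycin, control ethanol and control rapamycin, and of these neighbours only the middle pair did not overlap.

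The rapamycin effect on Acp65Aa was -0.28 ± 0.32 in knockout larvae (limma adjusted p = 0.579, interval -1.01 to 0.44) and -0.63 ± 0.32 in control larvae (limma adjusted p = 0.148, interval -1.35 to 0.10). The difference of effects was 0.34 ± 0.46 (limma adjusted p = 0.671, interval -0.68 to 1.37). These intervals hold falls as large as those of the other genes, so a response of Acp65Aa was not resolved with 3 arrays per group. Without control ethanol array 1 the effect in control larvae was -0.26 (limma adjusted p = 0.471) and the difference -0.03, and without control ethanol array 3 that effect was -0.91 (limma adjusted p = 0.0508).

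For verm, the fall in control larvae passed but the dependence on genotype did not. Its target name is 1 of 3 RefSeq transcripts of the gene, so the other transcripts were not told apart. Levels in knockout larvae were -2.21, -2.20 and -2.07 on rapamycin, against -2.11, -1.61 and -2.07 on ethanol. Levels in control larvae were -2.80, -3.08 and -2.67 on rapamycin, against -1.78, -2.23 and -2.30 on ethanol. Knockout groups overlapped each other, and again the control rapamycin arrays were the lowest 3 of the 12, a split not counted over all tested targets. The effect in knockout larvae was -0.23 ± 0.17 (limma adjusted p = 0.384), and its interval from -0.62 to 0.16 holds both no change and falls close to the value in control larvae. Without knockout ethanol array 2, which had the highest level of verm, this effect was -0.074 (limma adjusted p = 0.792) and the difference of effects between genotypes 0.67 (limma adjusted p = 0.0872).

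The effect on verm in control larvae was -0.75 ± 0.17 (limma adjusted p = 0.00652, interval -1.13 to -0.36). The difference of the effects was 0.51 ± 0.25 (limma adjusted p = 0.204, interval -0.04 to 1.06) and passed in 0 of 21 alternatives. On rapamycin food the knockout was higher by 0.69 ± 0.17 (limma adjusted p = 0.0155), which passed in 14 of 21 alternatives. That call was lost without control rapamycin array 2 (0.57, limma adjusted p = 0.0605) and without knockout rapamycin array 3 (0.64, limma adjusted p = 0.0511). On ethanol food the difference was 0.17 ± 0.17 (limma adjusted p = 0.578). Group means of verm were -2.16 ± 0.08 (SD) in knockout larvae on rapamycin and -1.93 ± 0.27 on ethanol, and -2.85 ± 0.21 in control larvae on rapamycin and -2.10 ± 0.28 on ethanol, and only control larvae on rapamycin stood clear of the rest.

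**Figure D2:**
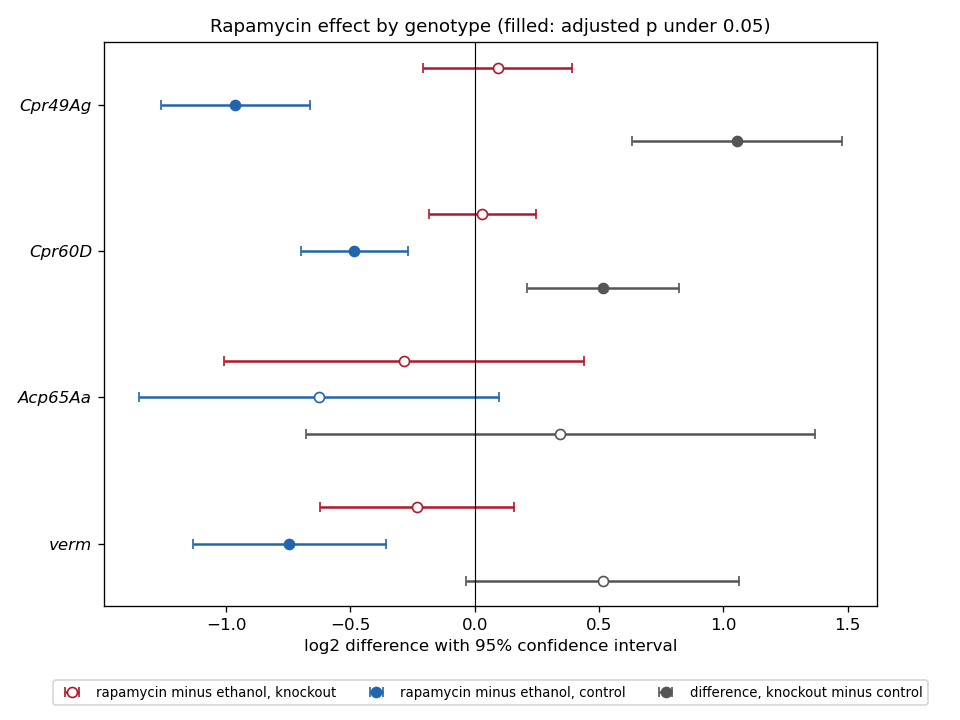
Rapamycin minus ethanol in knockout and in control larvae, and the difference of these effects, for the 4 genes (horizontal axis, log2; bars are 95% confidence intervals from limma, n = 3 arrays per group). The knockout intervals all hold 0, those of Cpr49Ag, Cpr60D and verm in control larvae do not, and the difference is clear of 0 for Cpr49Ag and Cpr60D.

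Set side by side on the same food, all 4 genes were higher in knockout than in control larvae on rapamycin, where 12.9% of all tested targets passed as higher and 20.8% had non-overlapping groups on that side. On ethanol only Acp65Aa passed, where 2.91% passed as higher and 14.4% did not overlap on that side. These contrasts share arrays with the rapamycin effects above and repeat part of the same information. No slide holds knockout and control arrays of the same food, so genotype and slide are tied in both contrasts. With slide as a block none of the 4 passed on rapamycin food, with values of 1.08 for Cpr49Ag, 0.52 for Cpr60D, 1.41 for Acp65Aa and 0.92 for verm.

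The pattern of Cpr49Ag and Cpr60D, a fall that passed in control larvae, no call in knockout larvae and a difference that passed, was met by 834 of the 18757 targets (4.45%). A fall in control larvae with no call in knockout larvae, which also describes verm, was met by 14.7%.

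**Figure D3:**
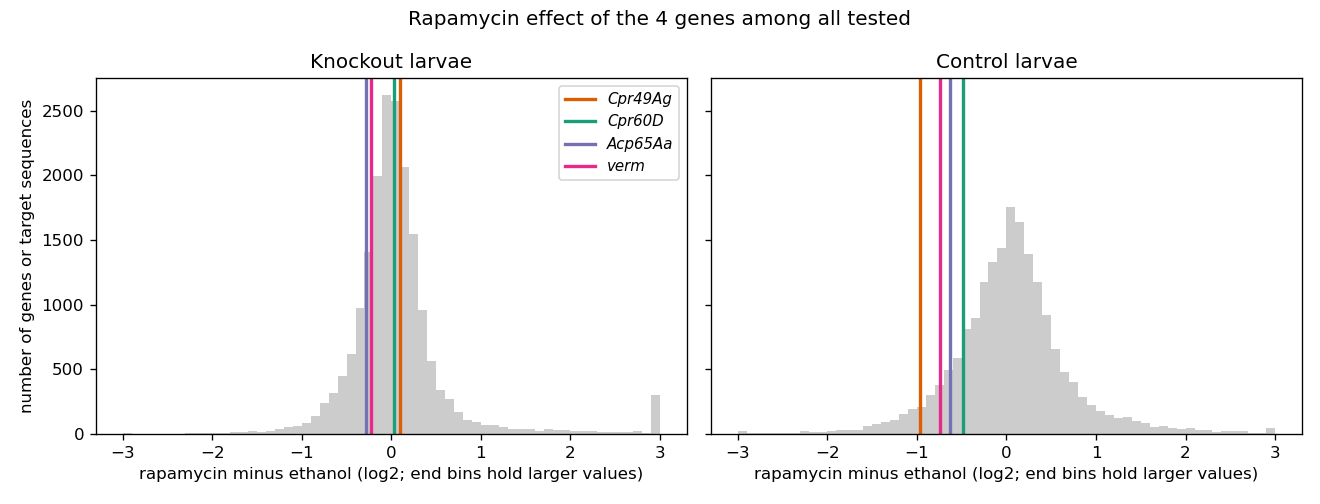
Rapamycin minus ethanol (horizontal axis, log2) over all 18757 tested genes or target sequences in knockout (left) and control larvae (right), with coloured lines at the 4 genes. In knockout larvae the lines lie between -0.28 and 0.09, with 17.8% (Acp65Aa) to 61.3% (Cpr49Ag) of targets lower, and in control larvae between -0.96 and -0.48, with 5.35% (Cpr49Ag) to 16.2% (Cpr60D) lower.

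The effect in control larvae was also negative on slide 1 alone, which holds control rapamycin array 1 and the 3 control ethanol arrays. There the values were -1.03 for Cpr49Ag, -0.50 for Cpr60D, -0.69 for verm and -0.55 for Acp65Aa. The lone rapamycin array was assumed to vary like the ethanol arrays, and no adjusted p passed (limma, lowest 0.0778, for Cpr49Ag). On slide 3, with the 3 knockout rapamycin arrays and knockout ethanol array 3, the values were 0.22, -0.02, -0.09 and -0.51 in the same order. With slide as a block the difference of effects was 1.25 ± 0.28 for Cpr49Ag and 0.48 ± 0.22 for Cpr60D, and neither passed (limma adjusted p = 0.0609 and 0.29). In that fit the effects in control and in knockout larvae were those of slide 1 and of slide 3 alone. They thus rest on the same lone control rapamycin array 1 and knockout ethanol array 3. With the spread taken from all arrays, the effect in control larvae kept its call for Cpr49Ag (-1.03, limma adjusted p = 0.00928) and Cpr60D (-0.50, limma adjusted p = 0.0487). For verm the call was lost (-0.69, limma adjusted p = 0.0957), so this fit is not a separate check of these values.

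Without the 3 arrays of highest roX2, the difference of effects was 0.98 ± 0.28 for Cpr49Ag (limma adjusted p = 0.102) and 0.50 ± 0.21 for Cpr60D (0.228), with a single knockout rapamycin array left, assumed to vary like the other groups. In that fit the effect in control larvae was -0.97 for Cpr49Ag, -0.49 for Cpr60D and -0.84 for verm, all 3 still past the threshold. On control rapamycin array 3, where roX2 was at -1.29 against -8.74 and -8.68 on the other two, Cpr49Ag lay between its levels on those arrays, Cpr60D was at 5.87 as on array 2, and Acp65Aa and verm were at their highest of the group.

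**Figure D4:**
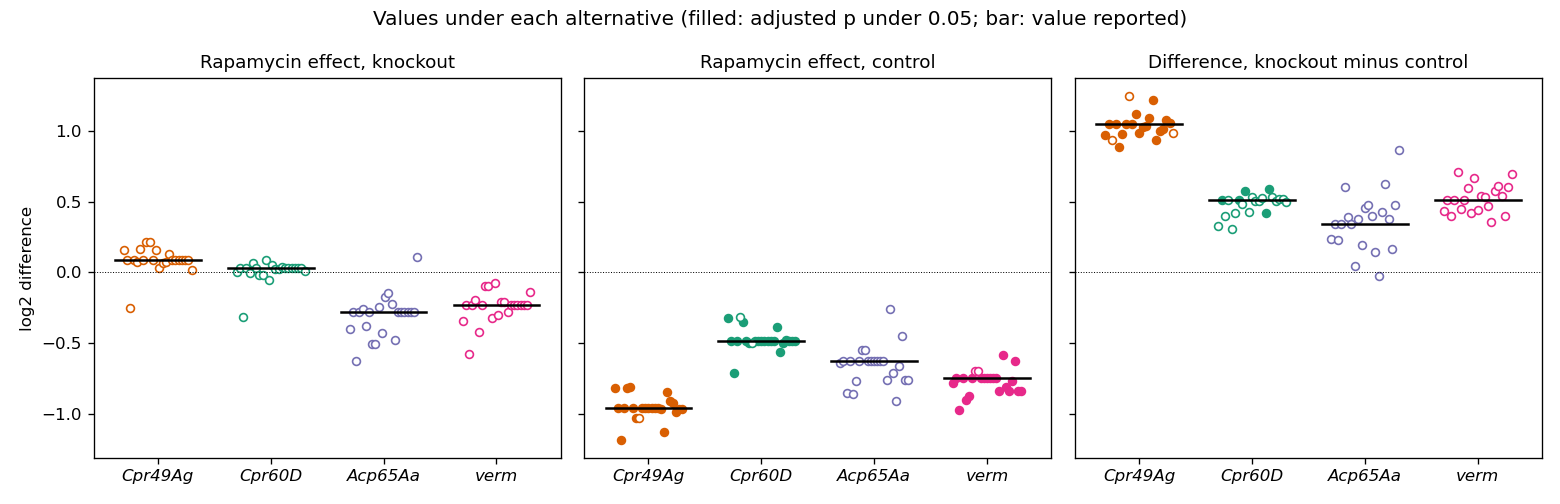
Value of each gene (vertical axis, log2 difference) under each processing alternative, for the rapamycin effect in knockout and in control larvae and the difference of effects; each circle is 1 alternative, filled where the adjusted p is under 0.05, and black bars mark the values reported. The effect in control larvae is below 0 for all 4 genes under every alternative drawn, between -1.19 and -0.81 for Cpr49Ag. Some alternatives, such as leaving out a knockout array, cannot move that effect. For the difference, circles are filled in 18 of 21 alternatives for Cpr49Ag and in 5 of 21 for Cpr60D.

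Scaling changed the sign of the effect in knockout larvae for Cpr49Ag and Cpr60D. Centring each array on its median moved the median of all targets to -0.33 in knockout and -0.18 in control larvae, and Cpr49Ag and Cpr60D then had -0.25 and -0.31 in knockout larvae, with neither passing. Relative to the median of all targets, the knockout effects were 0.08 for Cpr49Ag and 0.02 for Cpr60D, and the control effects -1.01 and -0.53. These relative values are the same under both scalings by construction, since the scalings differ only by a constant per array. The difference of effects for Cpr49Ag was 0.94 ± 0.30 with median centring (limma adjusted p = 0.168), while the falls of Cpr49Ag, Cpr60D and verm in control larvae passed under it. Of all targets that passed, 6.55% were higher with median centring and 41.5% without it in knockout larvae, and 21.9% and 49.3% in control larvae.

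Of the other genes of cuticle and chitin biology, few could be named on this array. Among 97 listed CPR genes only the 3 above had a probe under a name used here. Of 6 chitin deacetylases only verm was found, though its neighbour in the RefSeq gene order is the other deacetylase of the tracheae, serp. It was also the only one of 5 listed tracheal markers with a probe. No probe matched a listed gene of other cuticle protein families, of chitin synthesis, of the chitinases, of tanning or of the ecdysone response. Acp65Aa lies in a run of Lcp65A and Cpr65A genes and Cpr49Ag next to Cpr49Af and Cpr49Ae, in the gene order of the RefSeq table (Release 6 plus ISO1 MT). The probe sequences are not among the materials used here, so signal shared with such relatives was not tested.

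Of 22 listed chitin-binding and peritrophic matrix genes only obst-B, which encodes an obstructor-family chitin-binding protein, was measured. Its rapamycin effect was 0.13 ± 0.09 in knockout larvae (limma adjusted p = 0.366) and 0.07 ± 0.09 in control larvae (limma adjusted p = 0.553), and neither passed. Its levels in knockout larvae were 4.30, 4.27 and 4.35 on rapamycin, against 4.32, 4.27 and 3.96 on ethanol. In control larvae they were 4.07, 4.05 and 4.08 on rapamycin, against 4.07, 3.97 and 3.93 on ethanol. The foods overlapped in both genotypes, and the interval in control larvae ran from -0.13 to 0.28.

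Of the listed regulators and markers of epidermis only grh, which encodes the epidermal transcription factor Grainy head, was measured. It was well above background on all 12 arrays. Its rapamycin effect was 0.14 ± 0.21 in knockout larvae (limma adjusted p = 0.674) and 0.49 ± 0.21 in control larvae (limma adjusted p = 0.0899). The 2 further probes of grh had 0.41 and 0.56 in control larvae, and -0.08 and 0.30 in knockout larvae. All 3 probes were thus above 0 in control larvae, where the 4 cuticle genes were below 0. This compares signs only, since neither grh nor Acp65Aa passed there. The grh levels in control larvae, -2.44 to -2.36 on rapamycin and -3.20 to -2.47 on ethanol, did not overlap, yet the difference did not pass. The share of all tested targets with such non-overlap on the higher side is not given here. The listed markers of fat body, salivary gland, midgut and muscle matched no probe, so the makeup of tissues was not checked through them.

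Among the other 137 tested genes with a name of their own, those whose levels over the 12 arrays were most like each member were ranked by Pearson's r. The arrays form 4 groups, so these values describe mainly differences between groups. Cpr49Ag was closest to CrebA (r = 0.88), LanA (0.88) and alpha-Spec (0.83). Cpr60D was closest to Fatp3 (0.87), CrebA (0.86) and Pa1 (0.83), and verm to aralar1 (0.89), CrebA (0.86) and kis (0.84). Acp65Aa was closest to Fatp3 (0.92), snRNA:U12 (0.85) and Cpr60D (0.82).

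CrebA, a bZIP transcription factor gene of secretory cells, was thus among the nearest for 3 of the 4, and with median centring its r was 0.92 with Cpr49Ag, 0.95 with Cpr60D and 0.92 with verm. Median centring shifts all genes of an array alike, which can itself raise r between them. The other nearest genes of Cpr60D were then shop (0.93) and Ald1 (0.92). The CrebA probe used had a rapamycin effect of -0.17 ± 0.07 in knockout and -0.67 ± 0.07 in control larvae. The second CrebA probe had 0.05 and 1.05, so the likeness holds for 1 of 2 probes. The 2 probes of Fatp3 had 0.06 and 0.06 in knockout larvae and -0.65 and -0.65 in control larvae.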

How the data were processed

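Per the file headers, the deposited scanner files hold spot intensity, with background already subtracted in the processed signal. They were made with Agilent Feature Extraction, version 10.7 (the submitters' processing notes). The deposited value table holds a second intensity per probe, with column medians from 144 to 157. It was read as linear and uncentred, and how the authors made it is not given in the sources used here.

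The log2 processed signal was set relative to each array's 75th percentile, without control spots and outlier spots, and spots of 1 probe were averaged. Of 32162 probes, 494 matched 1 gene symbol in the RefSeq table, 3 several and 31665 none. Each gene or target sequence was represented by its probe of highest mean and was tested if every array of 1 or more groups showed it well above background. All groups entered one limma 3.58.1 model (R 4.3.3, 8 residual degrees of freedom, two-sided). The model was checked on simulated data with noise independent between arrays and changes in control larvae on rapamycin only. Slide effects and the difference of effects were not part of that check. Having 3 arrays per group limits the precision. Members, lists and alternatives were chosen with earlier results of these data known. Named were the 4 members, every measured gene of the lists and the 3 nearest patterns per member. Alternatives covered scaling, background, filter, probe rule, slide and replicate blocks, and left-out arrays. The planned normexp correction of the mean signal used the median signal instead, since the mean is not a column of the files used here. The headers name genome build dm3, older than the RefSeq table's, so no coordinates are given.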

Additional observations from a re-analysis of the deposited data

Results flagged for a closer look

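The rapamycin effect differed between knockout and control larvae by a test of the difference itself for Cpr49Ag (1.05, log2, knockout minus control) and for Cpr60D (0.51). The first held in 18 of 21 alternatives and the second in 5 of 21. Both calls were lost with median centring, with slide as a block and without the 3 arrays of highest roX2. Using no filter, the mean of all probes or the replicate block left both values unchanged, so these tallies overstate the number of separate checks. Groups of 3 arrays are too small for a test of single outlying arrays.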

How the results depend on the processing

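The effects in control larvae were negative for all 4 genes under every alternative, and the calls of Cpr49Ag, Cpr60D and verm passed in 22, 21 and 21 of 23. Several alternatives could not move these values, only their spread or adjustment. They are no filter, the mean of all probes, the replicate block and leaving out a knockout array. The removals of roX2 arrays gave identical results for this effect, with the same values as leaving out only control rapamycin array 3. Slide as a block and slide 1 alone also gave the same values as each other. The tallies thus overstate the number of separate checks. Causes of the changes below were not tested. Values are log2 differences. Shares of tested targets that passed follow the order knockout effect, control effect, difference of effects, knockout against control on rapamycin, and the same on ethanol, and are 15.3%, 43.1%, 14.6%, 27.9% and 6.40% in the results above.

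Median centring gave 7.65%, 20.5%, 1.75%, 8.88% and 0.640%. The knockout effect turned to -0.25 for Cpr49Ag and -0.31 for Cpr60D, and calls were lost for the difference of effects (Cpr49Ag 0.94, Cpr60D 0.40), for the knockout on rapamycin (Cpr60D 0.46, verm 0.55) and on ethanol (Acp65Aa 1.34). Among passing targets 23.7% were higher for the difference of effects (45.4% otherwise) and 23.1% for the knockout on rapamycin (46.3%). With quantile normalisation Cpr60D lost the difference (0.42), verm the knockout difference on rapamycin (0.58) and Acp65Aa that on ethanol (1.28), where 1.57% of targets passed. The deposited value table lost the difference of Cpr60D (0.33) and Acp65Aa on ethanol (1.21, 2.03% passing), and 30.6% of targets passing for the knockout effect were higher. Without the filter Cpr60D (0.51) and Acp65Aa on ethanol (1.36) lost theirs, and 7.42%, 28.2%, 7.84%, 17.2% and 2.14% of a larger set of targets passed.

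The normexp correction of the median signal gave 2.54%, 18.0%, 2.98%, 8.90% and 0.229%, with 21.9% of those for the knockout effect and 30.4% of those for the difference higher. Cpr60D had -0.003747 in knockout larvae, -0.31 in control larvae, a difference of 0.31 and 0.59 for the knockout on rapamycin, none passing. On rapamycin Acp65Aa (1.34) and verm (0.54) no longer passed, and on ethanol Acp65Aa had 0.74, Cpr49Ag 0.042 and verm -0.17, with the sign of the last 2 turned.

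With slide as a block 1.40%, 24.96%, 3.29%, 4.201% and 0.0533% passed, and of those passing for the last 3 comparisons 35.3%, 26.4% and 20.0% were higher. Cpr60D turned to -0.016 in knockout larvae, verm lost its control effect (-0.69), the differences of Cpr49Ag (1.25) and Cpr60D (0.48) were lost, as were the knockout differences on rapamycin (Cpr49Ag 1.08, Cpr60D 0.52, Acp65Aa 1.41, verm 0.92) and that of Acp65Aa on ethanol (1.37). Within slide 1, 14.9% of targets passed and Cpr49Ag (-1.03), Cpr60D (-0.50) and verm (-0.69) did not; within slide 3, limma passed 0% and Cpr60D had -0.016.

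The groups share replicate numbers. Deviations from the group mean of same-numbered arrays correlated at -0.18 to 0.18 in knockout and 0.02 to 0.05 in control larvae. Between genotypes they correlated at -0.82 to -0.21 on rapamycin and at -0.19 to -0.12 on ethanol. In control larvae 6 of 6 arrays correlated best with their own number in the other food, and in knockout larvae 2 of 6. These values do not settle whether the numbers pair the control arrays. With the replicate block 9.43% of targets passed for the knockout effect and 1.49% on ethanol, and of the members' calls it changed that of Acp65Aa on ethanol (1.36).

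The planned removal of all arrays with roX2 above background left no knockout rapamycin array; there Acp65Aa on ethanol was lost (1.36, 2.40% passing). Without the 3 arrays of highest roX2, chosen after seeing the data, 0.992% of targets passed for the knockout effect, 5.23% for the difference, 12.9% for the knockout on rapamycin and 2.40% on ethanol. Acp65Aa turned to 0.11 in knockout larvae, the differences of Cpr49Ag (0.98) and Cpr60D (0.50) were lost, as were Cpr49Ag (0.86), Cpr60D (0.58) and verm (0.87) on rapamycin and Acp65Aa (1.36) on ethanol.

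Leaving out 1 array at a time passed 7.06% to 18.4% of targets for the knockout effect and 0.570% to 13.8% for the knockout on ethanol, in the second comparison lowest without control ethanol array 3 and highest without control ethanol array 1. Cpr60D ran from -0.053 to 0.091 in knockout larvae, and its difference from 0.42 to 0.59. The difference of Acp65Aa ran from -0.025 to 0.63, its knockout difference on ethanol from 1.08 to 1.73, and the knockout difference of verm on rapamycin from 0.57 to 0.78.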

Other observations

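Within groups the 4 genes did not all move together, and Cpr49Ag went against the others. Over the deviations of the 12 arrays from their group means, Pearson's r was -0.82 for Cpr49Ag with Cpr60D and also -0.82 for Cpr49Ag with Acp65Aa, against 0.62 for Cpr60D with Acp65Aa. For verm it was -0.40 with Cpr49Ag, 0.02 with Cpr60D and 0.54 with Acp65Aa. Control ethanol array 1 had the lowest Cpr49Ag (3.26) and the highest Cpr60D (6.54), Acp65Aa (-1.63) and verm (-1.78) of its group. These are descriptions of arrays that share slides and scaling.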
